A study of Homo sapiens with 60 samples.

Results

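The transcription factor genes TWIST1, TWIST2, SNAI1, SNAI2, ZEB1, ZEB2, PRRX1 and TSC22D1, all known from mesenchymal cell states, were taken by symbol from an expression table of 37334 genes, and all 8 were in it. The cells were SH-SY5Y, a wild-type human neuroblastoma line, differentiated towards neurons with a published protocol and given lead (Pb) from day 5 on, with fresh Pb at each change of medium. RNA was sequenced at days 6, 9, 12, 15 and 18 after exposure to 0, 0.16, 1.26 or 10 µM Pb. Each of the 20 groups, 1 for every combination of day and dose, had 3 dishes, so that 60 libraries were made. All cells were 1 line at passage 39, so the tests below measure the spread between dishes and not between donors or lines. The 3 doses share the same 0 µM dishes at each day. Per-gene values are reads of a gene per 1000000 reads assigned to genes (CPM), and libraries held between 16594259 and 50539599 assigned reads.

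TWIST and SNAI proteins and the ZEB pair repress epithelial genes and promote migratory, mesenchymal states in embryos and in carcinomas. TWIST1 and TWIST2 are basic helix-loop-helix proteins that pair with E proteins such as TCF3, TCF4 and TCF12 and compete with the ID proteins for these partners. SNAI1, SNAI2, ZEB1 and ZEB2 are zinc finger repressors, and all of these factors bind E-boxes, short DNA elements that read CANNTG. PRRX1 is a homeodomain factor, and in neuroblastoma its forced expression moves cells from the noradrenergic state, which resembles sympathetic neuroblasts, towards the mesenchymal state. TSC22D1 is a leucine zipper protein first found as a gene induced by transforming growth factor beta.

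RefSeq promoter windows on GRCh38.p14, each 300 bases long with 250 bases before an annotated start and 50 after it, were held for 5 of the 8 genes, in 15 windows. Windows of 3 genes are shown, for the gene with the largest response to Pb (TWIST2), for the gene whose windows held the most copies of the E-box form CAGGTG (ZEB1, 1 of 7 windows), and for the gene with the most Pb calls (TSC22D1, 1 of 5 windows). Each is printed 5′ to 3′ on the strand of its gene, and capitals mark E-boxes.
TWIST2, chr2:238847835-238848134, plus strand: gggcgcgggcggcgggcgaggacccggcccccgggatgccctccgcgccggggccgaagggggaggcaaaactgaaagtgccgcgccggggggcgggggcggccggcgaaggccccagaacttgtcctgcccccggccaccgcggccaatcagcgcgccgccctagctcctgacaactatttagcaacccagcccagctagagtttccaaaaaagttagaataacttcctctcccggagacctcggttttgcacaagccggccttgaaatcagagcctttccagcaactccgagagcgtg
ZEB1, chr10:31318966-31319265, plus strand: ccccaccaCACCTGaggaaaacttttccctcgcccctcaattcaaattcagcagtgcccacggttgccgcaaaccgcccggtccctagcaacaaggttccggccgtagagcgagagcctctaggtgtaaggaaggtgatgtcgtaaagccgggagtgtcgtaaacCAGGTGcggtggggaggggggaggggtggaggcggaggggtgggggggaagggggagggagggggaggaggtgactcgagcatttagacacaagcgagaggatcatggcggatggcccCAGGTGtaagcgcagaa
TSC22D1, chr13:44576281-44576580, minus strand: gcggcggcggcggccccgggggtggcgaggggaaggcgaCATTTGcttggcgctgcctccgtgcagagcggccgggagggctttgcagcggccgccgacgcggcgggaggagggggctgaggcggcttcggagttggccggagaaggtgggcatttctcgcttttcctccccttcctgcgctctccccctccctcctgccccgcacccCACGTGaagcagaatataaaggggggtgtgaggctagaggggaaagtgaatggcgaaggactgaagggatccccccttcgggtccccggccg

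The single TWIST2 window held no match to CANNTG. The ZEB1 window held 3 E-boxes, and all 3 read CAGGTG on one of the strands. The TSC22D1 window held 2 E-boxes, and it also held 1 match to TGCGCNC, the core of the metal response element that the zinc-sensing factor MTF1 binds. The single ZEB2 window held 1 E-box and no CAGGTG. Counted on both strands over all 35116 windows in the table, CANNTG was in 68.7%, CAGGTG (a form of CANNTG) in 20.6%, TGCGCNC in 20% and TGACNNNGC, the core of the antioxidant response element, in 13.3%. The TWIST2 window held neither TGCGCNC nor TGACNNNGC. These are matches of letters, and they show neither binding nor its absence.

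Of the 8 genes 7 could be read and 1 could not. PRRX1 had 9 reads in all 60 libraries together and was at 0 in 56 of them. Its highest value was 0.197 CPM, from 4 reads in 1 library of day 12 at 10 µM, and it failed the filter of at least 1 CPM in at least 3 libraries. In a single library 3 reads were worth between 0.0594 and 0.181 CPM. TWIST2 passed the filter but was low in most groups, with at least 1 CPM in 22 of 60 libraries and a mean of 1.58 CPM. The other 6 genes had at least 1 CPM in all 60 libraries.

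Per kilobase of merged exons, the 2 highest of the 8 were TWIST1, with a mean level of 14.3 CPM per kilobase over the 60 libraries, and TSC22D1, with 14.0 CPM per kilobase. ZEB1 followed at 6.28, SNAI1 at 3.87, SNAI2 at 3.07, ZEB2 at 1.77 and TWIST2 at 0.84 CPM per kilobase. At day 12 without Pb the level of TWIST2 was 5.7 CPM per kilobase, above those of SNAI1 (2.25), SNAI2 (2.9) and ZEB2 (1.81) at that day. The merged exons span 25058 bases for ZEB2, 8650 for ZEB1 and 8586 for TSC22D1, against 1878 for TWIST2. They take in the exons of all annotated transcripts, so a gene can be ranked too low where its main transcript is shorter. The place of ZEB2 in this order therefore depends on the length used.

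TWIST2 lies at chr2:238848085-238910534, TWIST1 at chr7:19113047-19117636, SNAI1 at chr20:49982980-49988886 and SNAI2 at chr8:48917598-48921429 of the RefSeq annotation of GRCh38.p14. ZEB2 lies at chr2:144384081-144520119, TSC22D1 at chr13:44432143-44577344 and PRRX1 at chr1:170662768-170739421. ZEB1, at chr10:31318417-31529804, overlaps its antisense gene ZEB1-AS1, whose mean of 12.9 CPM was 23.8% of that of ZEB1. Whether the counting used strand is not given in the sources used here, so reads of these 2 genes may not be separated. ZEB2-AS1 and TSC22D1-AS1 were at 0.0775% and 0.515% of the genes they overlap.

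The labelled cell type was checked against marker lists. All 13 noradrenergic neuroblastoma markers passed the filter, and their summed level ran from 6616 to 18735 CPM, with means of 1016 CPM for PHOX2A, 331 CPM for HAND2 and 918 CPM for GATA2. Of 9 fibroblast markers 7 passed, and their summed level ran from 112 to 319 CPM. None of the 5 endothelial markers and 1 of the 6 blood markers passed, with HBB at 0 in all 60 libraries. Of the 7 Schwann and glia markers 3 passed, and their sum stayed between 3.44 and 18.5 CPM. All day 18 libraries were made in another library pool than those of days 6 to 15, so pool and day 18 cannot be told apart. Summed keratinocyte and skin markers were at 80.6 to 128 CPM in the day 18 libraries and at 21.7 to 41.6 CPM in the libraries of the other days, with KRT1 at 0 in all 60 libraries. KRT5, KRT14 and KRT6A averaged 32.6, 16.6 and 21.4 CPM at day 18 and at most 0.585 CPM at any other day. KRT10, most of the sum at the other days, went the other way, from 25.1 to 33.5 CPM there to 16.8 CPM at day 18. The part of these transcripts in the day 18 values below was not tested.

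**Figure D1:**
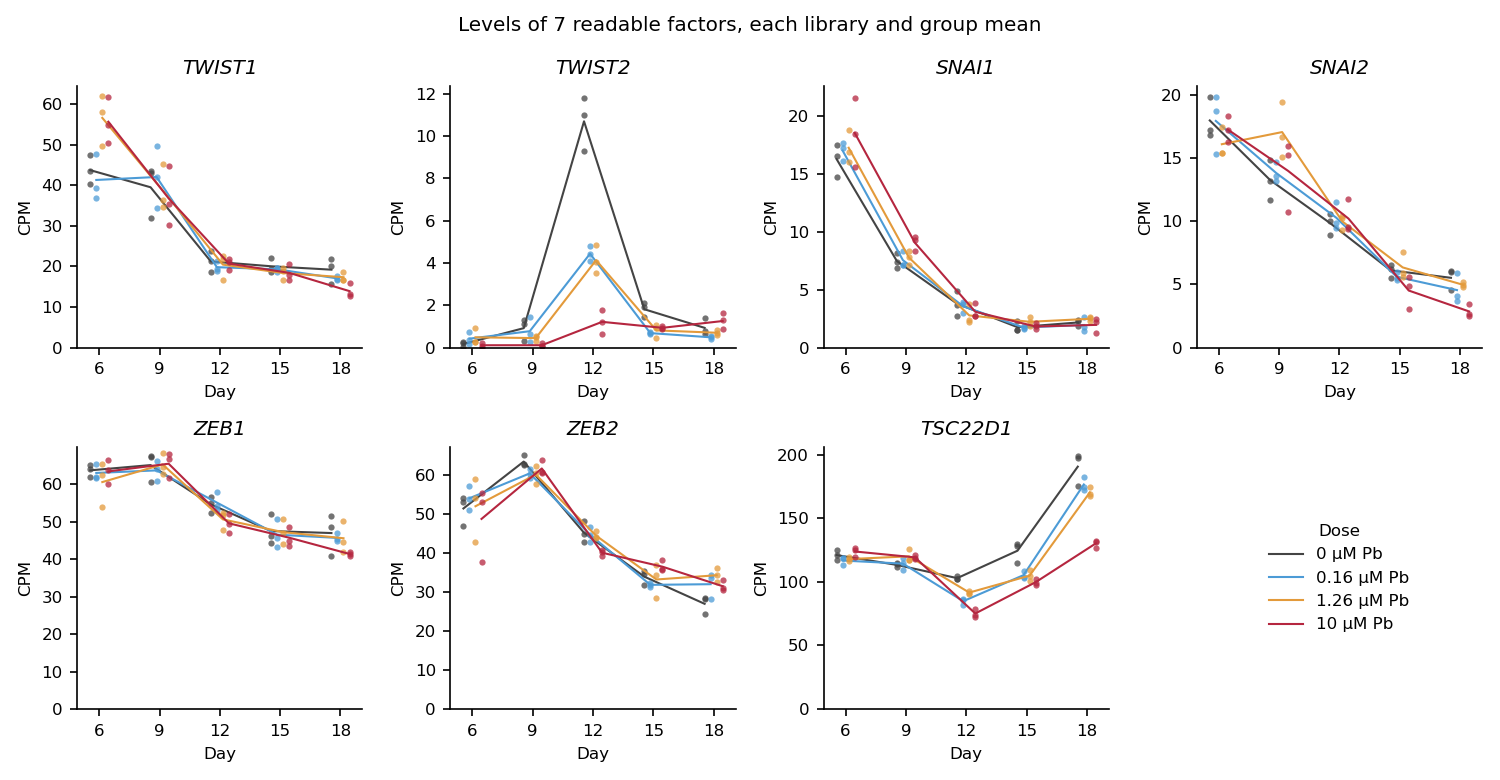
Level in CPM (y axis, linear, from 0) against day (x axis) for the 7 readable genes. Points are single libraries, lines join means of 3 libraries, colours give the Pb dose and points are shifted sideways by dose. TWIST2 without Pb stood at 9.31 to 11.8 CPM at day 12 and at no more than 2.09 CPM at any other day.

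Differentiation without Pb was followed first, by setting each later day against day 6 and against the day before it. SNAI1, SNAI2, TWIST1, ZEB1 and ZEB2 ended below their day 6 levels. TWIST2 peaked at day 12 and ZEB2 at day 9, and TSC22D1 was highest at day 18. Differences are log2 values of CPM + 1 from limma with their standard errors (SE), and adjusted p-values are Benjamini-Hochberg values over the 15263 genes that passed the filter. Across these genes a large share changed between days, so a call in 1 gene is set beside that share.

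At day 9 against day 6, 3 of the 7 readable genes passed the threshold of 0.05, against 5.14% of all genes tested. At day 12 against day 6, 6 of 7 passed, 1 higher and 5 lower (56.2% of all genes, 21.6% higher and 34.6% lower), at day 15 against day 6 also 6 of 7 (58.3% of all genes), and at day 18 against day 6 all 7 (66.8% of all genes). Between neighbouring days, 7 of 7 passed at day 12 against day 9 (54.4% of all genes), 6 of 7 at day 15 against day 12 (37% of all genes) and 3 of 7 at day 18 against day 15 (33.3% of all genes). The last count was 1 without replicate 1 of day 18, and that of day 9 against day 6 was 1 without replicate 1 or 2 of day 6 or replicate 1 or 3 of day 9. The median gene itself differed by -0.11 at day 12 against day 6 and by -0.10 at day 12 against day 9, and median-ratio rescaling brought these medians to -0.01 and 0.00. With that rescaling, and in edgeR and DESeq2, the calls of SNAI2, ZEB1 and TSC22D1 at day 12 against day 9 and of ZEB1 at day 12 against day 6 were lost.

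TWIST2, which restrains bone and muscle differentiation in mouse embryos, had 9.31, 11.8 and 11.0 CPM in the 3 libraries of day 12 without Pb (241, 382 and 275 reads), against 0.0455, 0.242 and 0.219 CPM at day 6 (1, 8 and 6 reads). The 2 days did not overlap, and every day 12 library stood far above every library of any other day without Pb. The ratio of means was 63.4, and the difference on the log2(CPM + 1) scale, which understates changes of low genes, was 3.32 ± 0.19 (limma, adjusted p = 7.08e-20). At day 15 TWIST2 had 1.9, 2.09 and 1.44 CPM, all below day 12, with a difference between these days of -2.06 ± 0.19 (limma, adjusted p = 3.82e-12). The means of days 18 and 9 were 0.933 ± 0.397 and 0.919 ± 0.526 CPM (SD, n = 3 each), and the libraries of these 2 days overlapped. In the order of the days, day 12 came first, then day 15, then days 18 and 9, then day 6.

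TWIST1, the paralogue of TWIST2, took another course. It averaged 43.7 ± 3.59, 39.5 ± 6.49, 21.2 ± 2.66, 20 ± 1.81 and 19.2 ± 3.15 CPM at days 6, 9, 12, 15 and 18 without Pb (SD, n = 3 each). Days 6 and 9 overlapped, days 12, 15 and 18 overlapped, and the step between these 2 sets of days was -0.86 ± 0.14 at day 12 against day 9 (limma, adjusted p = 5e-07).

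SNAI1, a repressor of E-cadherin, fell most of the 7. It averaged 16.3 ± 1.41, 7.48 ± 0.685, 3.79 ± 1.08, 1.76 ± 0.454 and 2.17 ± 0.289 CPM at days 6, 9, 12, 15 and 18 (SD, n = 3 each). Each day up to day 15 lay below the day before it with no overlap, and days 15 and 18 overlapped. The difference at day 15 against day 6 was -2.65 ± 0.15 (limma, adjusted p = 7.92e-20). SNAI2, which acts in neural crest migration in chick and frog embryos, averaged 18 ± 1.61, 13.3 ± 1.58, 9.83 ± 0.86, 6.11 ± 0.524 and 5.52 ± 0.861 CPM at the same days. At day 18 against day 6 SNAI2 differed by -1.55 ± 0.14 (limma, adjusted p = 4.25e-13).

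The ZEB genes changed less. In the absence of Pb, ZEB1 stood at 46.9 ± 5.6 CPM on day 18, against 63.7 ± 1.7 CPM on day 6 (SD, n = 3 each), a difference of -0.44 ± 0.07 (limma, adjusted p = 1.55e-06). ZEB2 averaged 51.5 ± 3.83, 63.5 ± 1.37, 45.3 ± 2.71, 34 ± 1.82 and 27 ± 2.36 CPM at days 6, 9, 12, 15 and 18. Its difference at day 18 against day 6 was -0.91 ± 0.09 (limma, adjusted p = 1.23e-11). The higher level of ZEB2 at day 9 than at day 6, 0.30 ± 0.09, passed narrowly (limma, adjusted p = 0.0496), and this call was lost in 50 of the 60 fits that each left out 1 library.

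TSC22D1 had 199, 197 and 175 CPM at day 18 without Pb, against 125, 121 and 117 CPM at day 6, with no overlap. The difference was 0.65 ± 0.05 (limma, adjusted p = 9.26e-17), and nearly all of it arose between days 15 and 18, where the library pool also differs. Before that TSC22D1 was lower, with 102.9 ± 1.69 CPM on day 12, against 121 ± 3.62 CPM on day 6 (SD, n = 3 each; -0.23 ± 0.05, limma, adjusted p = 3.74e-05).

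Over the 20 group means, the levels of TWIST1, SNAI1, SNAI2, ZEB1 and ZEB2 moved together, with Pearson's r between 0.79 and 0.96 over their 10 pairs. TWIST2 correlated with these 5 at between -0.46 and -0.15, and TSC22D1 at between -0.33 and -0.05. The groups share days and, within a day, library handling, so these values describe the courses and are not tests.

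The other genes of the pathway were taken from lists and counted at day 12 against day 6 without Pb, where 21.6% of all genes rose and 34.6% fell. Of 9 bHLH partners and ID inhibitors tested, 0 rose and 6 fell (median log2 difference -0.45, against -0.11 over all genes). ID3, an inhibitor that binds E proteins, averaged 41.5 CPM on day 12, against 272 CPM on day 6 (-2.68 ± 0.09, limma, adjusted p = 1e-29), and ID1 and ID2 fell likewise. ID1 averaged 14.8 CPM on day 12, against 97.9 CPM on day 6 (-2.64 ± 0.10), and ID2 23.4 CPM on day 12, against 97.9 CPM on day 6 (-2.02 ± 0.09). Of 25 genes of the TGF-beta and BMP pathway tested, 4 rose and 11 fell (median -0.25). Among the risers were the ligand TGFB1 (1.49 ± 0.09) and the receptor TGFBR2 (2.87 ± 0.20, 10.7 CPM on day 12, against 0.665 CPM on day 6), and SMAD6 and SMAD7, inhibitors of the pathway, fell (-1.82 ± 0.21 and -0.81 ± 0.15). Of 25 mesenchymal effector genes, 12 rose and 8 fell (median 0.24), with CDH11, a mesenchymal cadherin, at 186 CPM on day 12, against 43.7 CPM on day 6 (2.07 ± 0.11) and the intermediate filament gene VIM at 122 CPM on day 12, against 50.4 CPM on day 6 (1.26 ± 0.09). Of 11 epithelial genes tested, 6 rose and 1 fell (median 0.83), among them the tight junction genes OCLN (0.97 ± 0.14) and CLDN4 (0.83 ± 0.13).

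Counts in the other lists at day 12 against day 6 stand beside the same 21.6% of all genes higher and 34.6% lower. Of 14 corepressor genes 1 rose and 7 fell (median -0.32), with EZH2, the methyltransferase of Polycomb complex PRC2, at 35.3 CPM on day 12, against 66.6 CPM on day 6. Of 16 genes for regulators of SNAI, TWIST and ZEB protein stability 1 rose and 5 fell (median -0.09). Of 23 other mesenchymal neuroblastoma transcription factors 9 rose and 4 fell (median 0.07), and of 19 noradrenergic ones 3 rose and 13 fell (median -0.64). Of 6 genes of the TSC22D1 family and its partners 1 rose and 2 fell (median -0.09).

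Pb was then set against 0 µM of the same day, which keeps each comparison within 1 library pool. TWIST2 was lower at all 3 doses at day 12, TSC22D1 at all 3 doses at day 15, and SNAI2 at 10 µM at day 18. SNAI1 and ZEB1 passed at no dose on any day. Of 105 tests of a gene at a dose and day, 14 passed, 13 of them lower with Pb, and 11 of the 14 belonged to TWIST2 (4) and TSC22D1 (7). In the same comparisons the share of all genes called ran from 0% (0.16 and 1.26 µM at day 6) to 28.9% (10 µM at day 18). The count of 14 thus has no single share beside it, and shares are given by dose and day. Of the 91 that did not pass, 13 had an unadjusted p under 0.05. The share of all genes at that level was not counted, so the 13 are not read as Pb effects. At day 6 no dose gave a call among the 7 genes, with 0% of all genes called at 0.16 and 1.26 µM and 0.655% at 10 µM. The same held for 0.16 µM (0.0131% of all genes) and 1.26 µM (0.4% of all genes) at day 9, and for 0.16 µM at day 18 (6.34% of all genes). The shares of all genes at day 6 with 0.16 and 10 µM and at day 18 with 0.16 µM are not firm. Their counts were not kept when the 2 libraries with low values of long transcripts were left out. At day 18 with 0.16 µM the count of 967 ran from 0 to 1166 over the alternatives other than leaving out 1 library.

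**Figure D2:**
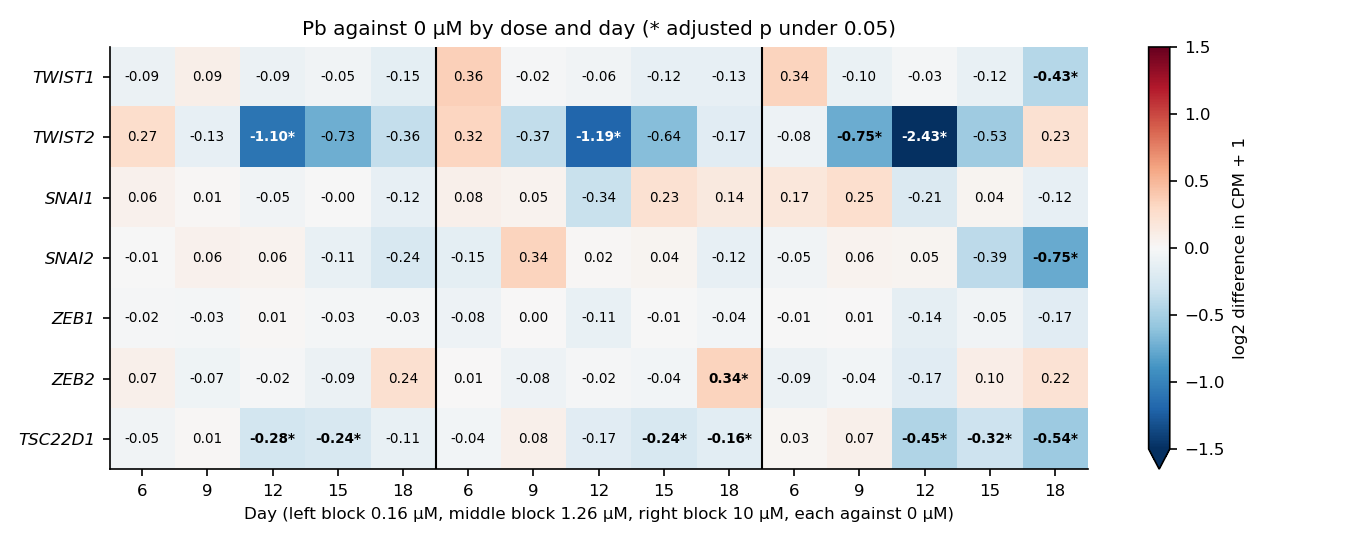
Log2 difference in CPM + 1 between Pb and 0 µM for 7 genes (rows) by day (columns) in 3 blocks of dose, with the colour scale cut at -1.5. Stars mark the 14 calls, and the lowest value is -2.43 for TWIST2 at day 12 with 10 µM.

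At day 12, in the order of the doses, TWIST2 had 9.31, 11.8 and 11.0 CPM at 0 µM and 4.09, 4.80 and 4.42 CPM at 0.16 µM. It had 4.03, 4.86 and 3.51 CPM at 1.26 µM and 1.23, 1.78 and 0.649 CPM at 10 µM, the last from 62, 36 and 25 reads. Each dose lay below 0 µM with no overlap, 10 µM lay below the other doses, and the libraries of 0.16 and 1.26 µM overlapped. The ratio of the 0 µM mean to the Pb mean was 2.41 for 0.16 µM, 2.59 for 1.26 µM and 8.79 for 10 µM. The log2 differences were -1.10 ± 0.19 at 0.16 µM (limma, adjusted p = 0.00428), -1.19 ± 0.19 at 1.26 µM (limma, adjusted p = 0.000864) and -2.43 ± 0.19 at 10 µM (limma, adjusted p = 1.41e-12).

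Across all genes, 0.0197% passed at day 12 with 0.16 µM, 0.0459% with 1.26 µM and 5.37% with 10 µM. Of the 7 readable genes 2 passed at 0.16 µM, 1 at 1.26 µM and 2 at 10 µM, and at 0.16 µM TWIST2 and TSC22D1 were 2 of 3 genes called among the 15263 tested. The genes were chosen with earlier results of these data known, so their place among the 3 is no separate support. Over the alternatives the 3 became up to 13. The call of TWIST2 at 10 µM was kept under every alternative and with any 1 library left out, with adjusted p up to 0.00119. The calls of TWIST2 at 0.16 and 1.26 µM were lost with a pseudocount of 0.25 and in edgeR and DESeq2, with adjusted p up to 0.537 at 0.16 µM and 0.281 at 1.26 µM, and that at 0.16 µM also without replicate 2 of 0 µM (0.0639) or replicate 1 of 0.16 µM (0.0818).

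**Figure D3:**
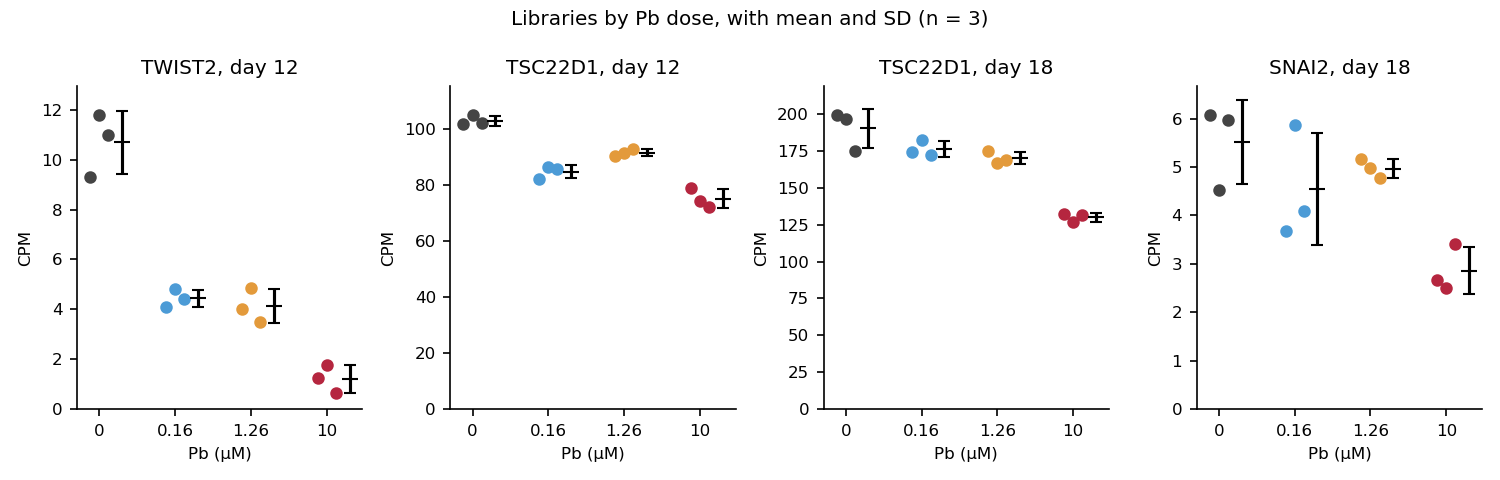
Level in CPM (y axis, linear, from 0) against Pb dose (x axis, evenly spaced) in single libraries for TWIST2 and TSC22D1 at day 12 and for TSC22D1 and SNAI2 at day 18, with the mean and SD of 3 libraries beside the points. At day 12 the highest TWIST2 library at 10 µM, 1.78 CPM, lay below the lowest at 0 µM, 9.31 CPM.

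On the days around the peak TWIST2 was at lower levels and the picture was less firm. At day 9 it had 0.0765, 0.0579 and 0.2 CPM at 10 µM (2, 2 and 6 reads), against 1.11, 0.324 and 1.32 CPM at 0 µM (39, 10 and 22 reads), with no overlap. The difference was -0.75 ± 0.19 (limma, adjusted p = 0.0291), while 1.41% of all genes passed and TWIST2 was the only 1 of the 7. The log2(CPM + 1) scale understates this change of a low gene. Over the alternatives other than leaving out 1 library, the day 9 difference ran from -3.02 to -0.73. That at day 12 ran from -3.19 to -2.43. The call was lost with no filter on low values and in a fit of only the 2 groups. It was also lost in 5 of the 60 fits without 1 library, namely replicate 1 or 3 of 0 µM or any of the 3 at 10 µM, with adjusted p up to 0.307. At day 15 the means were 1.81, 0.684, 0.813 and 0.934 CPM at 0, 0.16, 1.26 and 10 µM. No Pb library overlapped those of 0 µM at that day, and no dose passed (adjusted p 0.606 at 0.16 µM, 0.0969 at 1.26 µM and 0.1 at 10 µM, limma). At day 18 TWIST2 had 1.29, 0.859 and 1.61 CPM at 10 µM and 0.765, 0.647 and 1.39 CPM at 0 µM, and these overlapped (0.23 ± 0.19, limma, adjusted p = 0.399). The libraries at 0.16 µM, with 0.497, 0.554 and 0.406 CPM, lay below those at 0 µM on that day, and this difference did not pass (-0.36 ± 0.19, limma, adjusted p = 0.268). At day 6, after 1 day of exposure, no dose passed and every library was under 1 CPM.

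Averaged over the 5 days, each against its own 0 µM dishes, TWIST2 differed by -0.41 ± 0.09 at 0.16 µM (limma, adjusted p = 0.0305), -0.41 ± 0.09 at 1.26 µM (limma, adjusted p = 0.00236) and -0.71 ± 0.09 at 10 µM (limma, adjusted p = 1.2e-08). The 0.16 µM value was lost under 6 of 9 alternatives and in 11 of the 60 fits without 1 library, and the 1.26 µM value under 3 of 9 alternatives. Of the 7 genes 2 passed at 0.16 µM (0.124% of all genes), 2 at 1.26 µM (3.84% of all genes) and 3 at 10 µM, all lower (15.1% of all genes, 6.93% higher and 8.13% lower). The slope over dose steps, with the 4 doses as evenly spaced steps, passed for 3 of the 7 (15.7% of all genes), at -0.21 per step for TWIST2, -0.07 for TSC22D1 and -0.06 for SNAI2. The SNAI2 slope passed narrowly (limma, adjusted p = 0.0406) and was lost under 3 of 9 alternatives, with no filter (0.0752), without the 2 libraries with low values of long transcripts (0.0564) and without day 18, where it was -0.02 per step (0.659). It was also lost in 17 of the 60 fits without 1 library. The size of the 10 µM difference changed with the day for TWIST2 (moderated F test in limma, adjusted p = 1.79e-09), and 4 of the 7 genes passed that test (21.7% of all genes). With all doses in the test, 3 of the 7 passed (11.8% of all genes). In bulk RNA, fewer cells with TWIST2 transcripts and less TWIST2 RNA per cell cannot be told apart.

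TSC22D1 had 78.8, 74.3 and 72.2 CPM at day 12 with 10 µM, against 101.9, 104.8 and 101.9 CPM at 0 µM. The groups did not overlap, and the difference was -0.45 ± 0.05 (limma, adjusted p = 2.7e-09). At 0.16 µM it had 82.1, 86.6 and 85.7 CPM (-0.28 ± 0.05, limma, adjusted p = 0.00256), and at 1.26 µM, with 90.3, 91.4 and 92.8 CPM, the difference of -0.17 ± 0.05 did not pass (limma, adjusted p = 0.21). The levels did not follow the order of the doses at this day, since the libraries at 0.16 µM all lay below those at 1.26 µM. That order was not tested as a difference between the 2 doses. The 0.16 µM call at day 12 was lost in a fit of only the 2 groups, and without replicate 2 of 0 µM (adjusted p = 0.0516) or replicate 1 of 0.16 µM (0.0818).

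At day 15 TSC22D1 had 97.3, 102.3 and 99.3 CPM at 10 µM, against 130.1, 128.2 and 115 CPM at 0 µM, with no overlap (-0.32 ± 0.05, limma, adjusted p = 5.98e-06). At that day TSC22D1 was the only 1 of the 7 called at each dose, against 0.0131% of all genes at 0.16 µM, where it was 1 of 2 genes called, 1.26% at 1.26 µM and 5.68% at 10 µM. Here too the genes were chosen with earlier results known. At 1.26 µM it had 100.3, 104.6 and 109.6 CPM (-0.24 ± 0.05, limma, adjusted p = 0.00176), and at 0.16 µM 103.6, 103.3 and 108.7 CPM (-0.24 ± 0.05, limma, adjusted p = 0.0442). These 2 groups overlapped each other and not the 0 µM group. The 0.16 µM call was lost in 38 of the 60 fits without 1 library and with a replicate block (0.0674). In fits of only the 2 groups the calls at both of these doses were lost, with adjusted p of 0.204 at 1.26 µM and 1 at 0.16 µM. At day 18 TSC22D1 had 132.4, 126.7 and 131.5 CPM at 10 µM, against 199.2, 196.9 and 175.3 CPM at 0 µM. The 2 groups stood wide apart, with a difference of -0.54 ± 0.05 (limma, adjusted p = 4.81e-13). At 1.26 µM on that day it had 174.8, 167.1 and 168.9 CPM (-0.16 ± 0.05, limma, adjusted p = 0.0186), and this call was lost without replicate 1 or 2 of 0 µM or replicate 2 or 3 of 1.26 µM, with adjusted p up to 0.244, and in a fit of only the 2 groups (0.418). At days 6 and 9 no dose passed, and the differences lay between -0.05 and 0.08. The mean over the 5 days was -0.13 ± 0.02 at 0.16 µM (limma, adjusted p = 0.000596), -0.11 ± 0.02 at 1.26 µM (0.00104) and -0.24 ± 0.02 at 10 µM (1.22e-12). Its change with the day passed as well (F test in limma, adjusted p = 4.72e-11 for 10 µM).

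SNAI2 had 2.67, 2.5 and 3.42 CPM at day 18 with 10 µM (66, 67 and 72 reads), against 6.07, 4.53 and 5.97 CPM at 0 µM. The groups did not overlap, and the difference was -0.75 ± 0.14 (limma, adjusted p = 6.82e-05). At that day 3 of the 7 genes passed with 10 µM, against 28.9% of all genes. At day 15 the difference of -0.39 ± 0.14 did not pass (limma, adjusted p = 0.101), and on the earlier days the 10 µM differences lay between -0.05 and 0.06. At 1.26 µM on day 9 SNAI2 had 16.6, 15.1 and 19.4 CPM, against 13.2, 11.7 and 14.9 CPM at 0 µM, apart from each other but not past the threshold (0.34 ± 0.14, limma, adjusted p = 0.631). The mean over the 5 days at 10 µM, -0.22 ± 0.06, passed (limma, adjusted p = 0.0128) and was lost without day 18, at -0.09 with an adjusted p of 0.51.

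TWIST1 had 13.2, 15.9 and 12.6 CPM at day 18 with 10 µM, against 21.8, 15.7 and 20.1 CPM at 0 µM. The groups overlapped, and the difference of -0.43 ± 0.14 passed (limma, adjusted p = 0.0131) but not without replicate 1 of 0 µM (-0.34, adjusted p = 0.111) or replicate 3 of 10 µM (-0.37, adjusted p = 0.0687), nor in a fit of only the 2 groups (0.0942). At day 6 TWIST1 had 49.6, 58.1 and 62 CPM at 1.26 µM and 50.4, 54.7 and 61.8 CPM at 10 µM, all above the 40.2, 43.5 and 47.4 CPM at 0 µM, and neither dose passed (limma, adjusted p 0.464 at 1.26 µM and 0.221 at 10 µM).

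ZEB2 was the only gene of the 7 called higher with Pb. At day 18 with 1.26 µM it had 34.3, 36.1 and 32.6 CPM, against 24.3, 28.4 and 28.4 CPM at 0 µM, with no overlap (0.34 ± 0.09, limma, adjusted p = 0.014). At that dose and day 2 of the 7 genes passed, against 12.4% of all genes. The count behind that share, 1890, was not kept without the 2 libraries with low values of long transcripts. Over the alternatives other than leaving out 1 library it ran from 0 to 2089. The lowest 0 µM value came from replicate 1, 1 of 2 libraries with low values of long transcripts, and without it the difference was 0.27 with an adjusted p of 0.222. The call was also lost without replicate 2 of 1.26 µM (0.0647) and in a fit of only the 2 groups (0.352). For SNAI1 the 15 differences lay between -0.34 and 0.25, with a smallest adjusted p of 0.499, and for ZEB1 between -0.17 and 0.01, with a smallest adjusted p of 0.0779 (limma). Each of these 2 genes had 1 unadjusted p under 0.05, and the share of all genes at that level was not counted.

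The wider pathway was counted at 10 µM against 0 µM at day 12, where TWIST2 differed most on the log2(CPM + 1) scale. Of 25 mesenchymal effector genes 1 rose and 12 fell (3.03% of all genes rose and 2.34% fell), with a median of -0.27 against 0.01 over all genes. The fibrillar collagen gene COL3A1 averaged 2.2 CPM at 10 µM and 46.2 CPM at 0 µM (-3.88 ± 0.23, limma, adjusted p = 1.37e-17). COL1A1, another fibrillar collagen gene, averaged 4.12 CPM at 10 µM and 10.5 CPM at 0 µM (-1.18 ± 0.20). VIM averaged 72.4 CPM at 10 µM and 122.1 CPM at 0 µM (-0.75 ± 0.09), and the matrix glycoprotein gene FN1 4.9 CPM at 10 µM and 9.31 CPM at 0 µM (-0.81 ± 0.17). The protease inhibitor gene SERPINE2 (-1.23 ± 0.24) and the matrix protein gene THBS1 (-0.80 ± 0.16) were also among the 12. As the mean over the 5 days, 2 of the 25 rose and 12 fell (6.93% of all genes rose and 8.13% fell), with a median of -0.22 against 0.00 over all genes, and CDH11 was 1 of the 2 that rose (0.33 ± 0.05).

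The sum of the fibroblast markers was lower at day 12 with 10 µM, as TWIST2 was. The largest part of this sum was THY1, which did not pass the test. Their summed level was 142 to 158 CPM at 10 µM and 174 to 179 CPM at 0 µM, and the means of all 7 that passed the filter were lower at 10 µM. At 1.26 µM the sum, 158 to 171 CPM, was also below 0 µM, while at 0.16 µM it overlapped 0 µM (167 to 175 CPM). Without Pb the sum averaged 176 CPM at day 12 and 261 and 279 CPM at days 15 and 18, where TWIST2 was lower. Of these 7, 4 passed the test as lower (2.34% of all genes), namely FAP, COL1A1, DCN and PDGFRA. COL1A1 is also in the list of mesenchymal effector genes above, so it is counted in both lists. FAP was low, with at most 1.60 CPM in any library. At day 12 it averaged 0.0956 CPM at 10 µM, 0.434 CPM at 1.26 µM, 0.467 CPM at 0.16 µM and 1.27 CPM at 0 µM. FAP may have passed the filter largely through the 0 µM libraries it is compared with, so its call carries little weight. PDGFRA averaged 33.7 CPM at 10 µM and 46.6 CPM at 0 µM, and at 0.16 µM it was higher, at 49.8 CPM. THY1 (102 CPM at 10 µM and 107 CPM at 0 µM), LUM (8.36 CPM at 10 µM and 9.14 CPM at 0 µM) and COL1A2 (0.161 CPM at 10 µM and 0.393 CPM at 0 µM) did not pass. Of the 9 markers in the list, POSTN and MFAP5 failed the filter and were at 0 in 57 and 24 of the 60 libraries. The part of these markers in the TWIST2 difference was not tested.

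Among 9 bHLH partners and ID inhibitors, 2 rose and 0 fell at day 12 with 10 µM (median -0.02). Across all genes 3.03% rose and 2.34% fell in this comparison, and the list counts below stand beside these shares. The 2 that rose were ID3, with 57.9 CPM at 10 µM and 41.5 CPM at 0 µM (0.47 ± 0.09, limma, adjusted p = 0.000443), and ID1, with 20.7 CPM at 10 µM and 14.8 CPM at 0 µM (0.46 ± 0.10, limma, adjusted p = 0.00213). Of 25 TGF-beta and BMP pathway genes 0 rose and 2 fell (median -0.09). LTBP1, which anchors latent TGF-beta in the matrix, averaged 3.45 CPM at 10 µM and 7.63 CPM at 0 µM (-0.98 ± 0.19, limma, adjusted p = 0.000465), and the ligand TGFB2 0.0882 CPM at 10 µM and 0.884 CPM at 0 µM (-0.78 ± 0.18, limma, adjusted p = 0.00366). TGFB2 was low, with a 10 µM mean in the range that 3 reads in a single library are worth (0.0594 to 0.181 CPM). Its 0 µM mean was under 1 CPM too, so its call carries little weight. Of 23 other mesenchymal neuroblastoma factors 2 rose and 2 fell (median -0.10), with AEBP1 and the YAP partner WWTR1 lower (-0.57 ± 0.11 and -0.88 ± 0.17) and FOSL1 and ID1 (ID1 is also in the list of ID inhibitors) higher. Of 19 noradrenergic factors 0 rose and 2 fell, GATA2 and TFAP2B (median -0.03).

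Of 11 epithelial genes 0 rose and 3 fell at day 12 with 10 µM (median -0.04), the keratin genes KRT18 and KRT8 and CLDN7. Of 14 corepressors, 16 stability regulators and 6 genes of the TSC22D1 family and its partners, 0 passed at that day and dose. As the mean over the 5 days, where 6.93% of all genes rose and 8.13% fell, 2 of the 14 corepressors fell, EZH2 (-0.23 ± 0.04) and AJUBA (-0.38 ± 0.08), 1 of the 16 stability regulators rose, MDM2 (0.19 ± 0.06), and 0 of the 6 TSC22D1 family and partner genes passed.

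Genes nearest in pattern were ranked by Pearson's r of log2(CPM + 1), 3 per gene and measure. Over the 20 group means the nearest to TWIST2 were AMIGO2 (r = 0.92), the tubulin gene TUBB4B (0.88) and the claudin gene CLDN11 (0.87). Over the 15 within-day Pb differences they were SNTG1 (0.95), the matrix protein gene TNC (0.94) and the proteoglycan gene DCN (0.93). At day 12 AMIGO2 averaged 0.513 CPM at 10 µM and 2.57 CPM at 0 µM, DCN 0.194 CPM at 10 µM and 1.56 CPM at 0 µM, and TUBB4B 802 CPM at 10 µM and 955 CPM at 0 µM. All 3 were below their 0 µM means at 10 µM. The genes were ranked on values that include this comparison, so their lower means are no separate support. CLDN11 averaged 5.22 CPM at 10 µM and 6.15 CPM at 0 µM at day 12, and its libraries in these groups overlapped. AMIGO2 reached 1 CPM only in libraries of day 12 at 0, 0.16 and 1.26 µM, so it passed the filter only through these. AMIGO2 averaged 0.0152 CPM at day 6 without Pb, under the floor of 3 reads in any library.

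**Figure D4:**
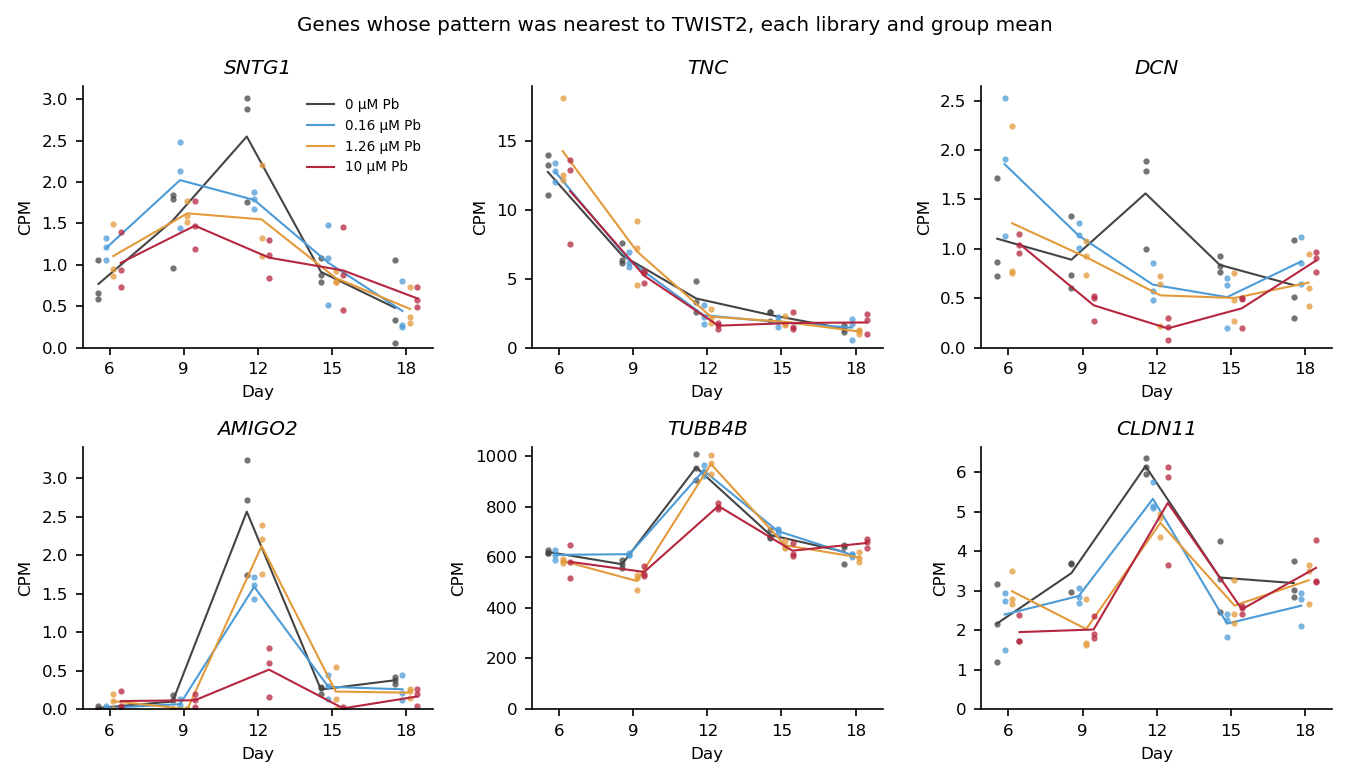
Level in CPM (y axis, linear, from 0) against day (x axis) for the 6 genes nearest to TWIST2, in single libraries (points) and as means of 3 libraries (lines) by dose. The top row was ranked on the 15 Pb differences and the bottom row on the 20 group means, and AMIGO2 at day 12 averaged 0.513 CPM at 10 µM and 2.57 CPM at 0 µM.

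For TSC22D1 the nearest genes over the group means were CLDN5 (r = 0.94), TTC8 (0.93) and DCAF4 (0.93), and over the Pb differences HAUS8 (0.94), NFIA (0.94) and LBH (0.93). For SNAI1 the nearest over the group means was ID2 (0.98), for TWIST1 HOMER2 (0.99), for SNAI2 ZNF138 (0.98), for ZEB1 DDIAS (0.99) and for ZEB2 DR1 (0.98). The Pb differences did not tie the genes together as the courses did: over their 10 pairs TWIST1, SNAI1, SNAI2, ZEB1 and ZEB2 ran from -0.61 to 0.66. All Pb differences of a day share the same 0 µM dishes, so these too are descriptions.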

How the data were processed

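The authors deposited CPM values (reads per 1000000 assigned reads) for 37334 genes in 60 libraries, per the file headers. STAR, featureCounts, FastQC, MultiQC and the build GRCh38 are listed in the submitters' processing notes. Annotation, strand setting and handling of duplicates are not given in the sources used here. Every column summed to 1000000, and 100% of values were whole multiples of 1 read within 0.01 read, so whole reads were recovered. Libraries held 16594259 to 50539599 reads. Values and floors carry counting error only, and no molecular identifiers are named in the sources used here.

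Genes had to reach 1 CPM in 3 or more libraries, and the 15263 that did were analysed as log2(CPM + 1) with limma 3.58.1 in R 4.3.3. The model had 1 mean per group, an intensity trend and 40 residual degrees of freedom, and two-sided p-values were adjusted by Benjamini-Hochberg over all genes kept (threshold 0.05). Replicate numbers are those of the labels, 1 dish each. All 8 genes are named above, and the 7 that passed the filter were tested in every comparison, with values printed for a part of these tests. From each list up to 6 genes with the smallest p were eligible, and the 3 nearest genes per member were ranked by Pearson's r. The 8 genes, the 9 gene lists and the 6 marker lists were chosen with earlier results of these data known. The model was tested on simulated data. Alternatives were a pseudocount of 0.25, no filter, median-ratio rescaling, only the groups compared, a replicate block, edgeR 4.0.16 and DESeq2 1.42.0 on recovered reads, leaving out day 18, leaving out 2 libraries low in long transcripts, a linear dose scale and leaving out each library.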

Additional observations from a re-analysis of the deposited data

Results flagged for a closer look

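The difference between 10 µM and 0 µM changed with the day for 4 of the 7 genes. Adjusted p-values from the moderated F test in limma were 1.79e-09 for TWIST2, 4.72e-11 for TSC22D1, 0.00626 for SNAI2 and 0.0331 for TWIST1. TWIST2 at 10 µM differed by -2.43 at day 12 and by 0.23 at day 18, and TSC22D1 by 0.07 at day 9 and by -0.54 at day 18. SNAI2 differed by -0.05 at day 6 and by -0.75 at day 18, and TWIST1 by 0.34 at day 6 and by -0.43 at day 18.

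With all 3 doses in the test, adjusted p-values were 6.32e-08 for TWIST2, 1.48e-09 for TSC22D1 and 0.0485 for SNAI2. The TWIST1 value for 10 µM was lost under 5 of 9 alternatives and in 7 of the 60 fits without 1 library. The SNAI2 value for all doses passed in 17 of the 60 fits without 1 library. Without day 18, the value of SNAI2 for 10 µM by day no longer passed (adjusted p = 0.313).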

How the results depend on the processing

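No direction reversed. Of 16 counts of genes called, 121 of 141 values under alternatives and 940 of 960 with 1 library left out were within 1.5 times the reported count. At day 12 against day 9 the 7 calls became 4 with rescaling, edgeR or DESeq2. At day 18 against day 15 the 3 became 1 when only the 2 groups were fitted. The mean over days went to 1 of 2 at 1.26 µM with a pseudocount of 0.25, edgeR or DESeq2, and to 1 of 2 at 0.16 µM under these, with no filter, with only the groups compared and without day 18. Calls by day for 10 µM were 2 without day 18, against 4, and for all doses 5 with DESeq2, against 3. Calls within days were 4 at 10 µM without day 18, against 7. At 1.26 µM they were 2 without day 18 or without the 2 libraries low in long transcripts and 1 with only the groups compared, against 4, and at 0.16 µM 1 with only the groups compared, against 3. Leaving out each library gave 1 to 3 calls at day 9 against day 6, 1 to 3 at day 18 against day 15, 1 to 2 for the mean at 0.16 µM, 2 to 4 within days at 1.26 µM and 0 to 4 at 0.16 µM. Counts over all genes also moved. The reported count and the range over the alternatives other than leaving out 1 library were 785 and 522 to 1012 at day 9 against day 6 and 5079 and 2455 to 5101 at day 18 against day 15. For 10 µM they were 2298 and 1497 to 2471 as the mean, 100 and 1 to 187 at day 6, 215 and 80 to 270 at day 9, 819 and 480 to 1083 at day 12, 867 and 355 to 1161 at day 15, 4418 and 1543 to 4417 at day 18 and 3308 and 825 to 3541 by day. For 1.26 µM they were 586 and 247 to 722 as the mean, 0 and 0 to 5 at day 6, 61 and 6 to 83 at day 9, 7 and 5 to 19 at day 12, 192 and 13 to 303 at day 15 and 1890 and 0 to 2089 at day 18. For 0.16 µM they were 19 and 5 to 46 as the mean, 0 and 0 to 12 at day 6, 2 and 2 to 15 at day 9, 3 and 3 to 13 at day 12, 2 and 1 to 13 at day 15 and 967 and 0 to 1166 at day 18. For all doses by day they were 1806 and 419 to 2703. Leaving out the 2 libraries low in long transcripts took some of these counts beyond 1.5 times. These were 10 µM at day 6, 1.26 µM at days 12, 15 and 18, and 0.16 µM at days 6, 12 and 18 and as the mean.

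Little sign of pairing by replicate number was seen. Over 45 pairs of same-numbered libraries, each with Pb against 0 µM of its day, deviations from group means correlated between -0.356 and 0.394. The median was -0.0111, and 9 of the 45 exceeded 0.1. Whether dishes were handled in pairs cannot be told from these values. A replicate block left all 16 counts within 1.5 times, and with it the calls of ZEB2 at day 9 against day 6, of TSC22D1 at 0.16 µM on day 15 and of SNAI2 for all doses by day were lost. Few reads of TWIST2 outside day 12, and of PRRX1 throughout, limit the precision of their values. The causes of the losses were not tested.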
